A study of Rattus norvegicus with 12 samples.

Results

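Liver makes most of the clotting and complement proteins of blood plasma, and the 37 genes described here encode such proteins: 10 clotting factors and contact-phase proteins, 10 inhibitors and fibrinolysis proteins, and 17 complement proteins. They were taken as a list of gene names, and a probe was assigned to a gene where the RefSeq accession the array file gives for it belongs to that gene. Of the 37 genes, 32 had such a probe, among 21858 genes tested in all, and all 32 were well above background on all 12 arrays. Of the 21858, 11389 had a RefSeq symbol and 10469 were known only by the array's own identifier, and both kinds are counted in the shares of all genes tested. No probe was matched for F5, F11, F13b, C5 and C8g, whose RNA is not analysed here. The measured genes were 7 clotting factors, 10 inhibitors and fibrinolysis proteins and 15 complement proteins.

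The samples were livers of adult male Wistar rats, with 6 rats on a low protein diet of 5% casein and 6 rats on a control diet of 14% casein. Both diets were given for 4 weeks and had the same energy content. Each array took the Cy3-labelled RNA of 1 rat (Agilent, 1 colour), so RNA in liver was measured and not protein in plasma. All 6 hepatocyte markers looked for (Alb, Ttr, Apoa1, Apob, Tf and Hnf4a) were measured in these livers. A level is given as the log2 of a probe's signal over the 75th percentile of its array, so that 1 unit is a doubling, and levels of different probes cannot be set against each other. A difference is the low protein mean minus the control mean on that scale, with the standard error (SE) and 95% interval of limma, a linear model fitted over all genes. A gene is said to have changed where its Benjamini-Hochberg adjusted p over all 21858 genes was under 0.05. The arrays lay on 2 slides, with 4 arrays of each diet on slide 1 and 2 of each on slide 2, and the 75th percentile of signal was 942 to 1317 intensity units on low protein arrays and 944 to 1305 on control arrays.

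Clotting runs as a cascade in which a protease activates the next, ending with thrombin, which turns fibrinogen into fibrin; antithrombin, protein C and other inhibitors hold it back, and plasmin later dissolves the clot. Complement is started by the classical, lectin or alternative route, and its terminal proteins assemble into a pore in the target membrane. In hepatocytes many of these genes are driven by liver transcription factors such as HNF1, HNF4 and C/EBP, and several complement genes also respond to inflammation.

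Of the 32 measured genes, 1 changed: complement component C6 was 1.74-fold lower in low protein livers. That is 3.12% of the genes, against 6.53% of all genes tested, of which 3.05% were lower and 3.48% higher, and 6.66% of those with a symbol. The count was 0 without scaling between arrays and 3 after quantile normalization, where C1s and C9 were added. No clotting factor, inhibitor or fibrinolysis protein passed limma's test. At an unadjusted p under 0.05 there were 5 genes (15.6%, against 21.6% of all genes tested), of which C6, C1s, C9 and Serpinf2 were lower (11.3% of all genes tested) and Masp2 was higher (10.3%). In 30 of the 32 genes the 95% interval of the difference lay within 0.5 log2 units of 0, which was so for 59.7% of all genes tested. The exceptions were C6 and C1s, and C6 was also the exception to an interval within 1 log2 unit, which held for 91.4% of all genes tested. The values of the diets overlapped in all 32 genes, while in 4.99% of all genes tested they did not. In the plot of differences most intervals cross 0 and that of C6 stands apart.

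**Figure D1:**
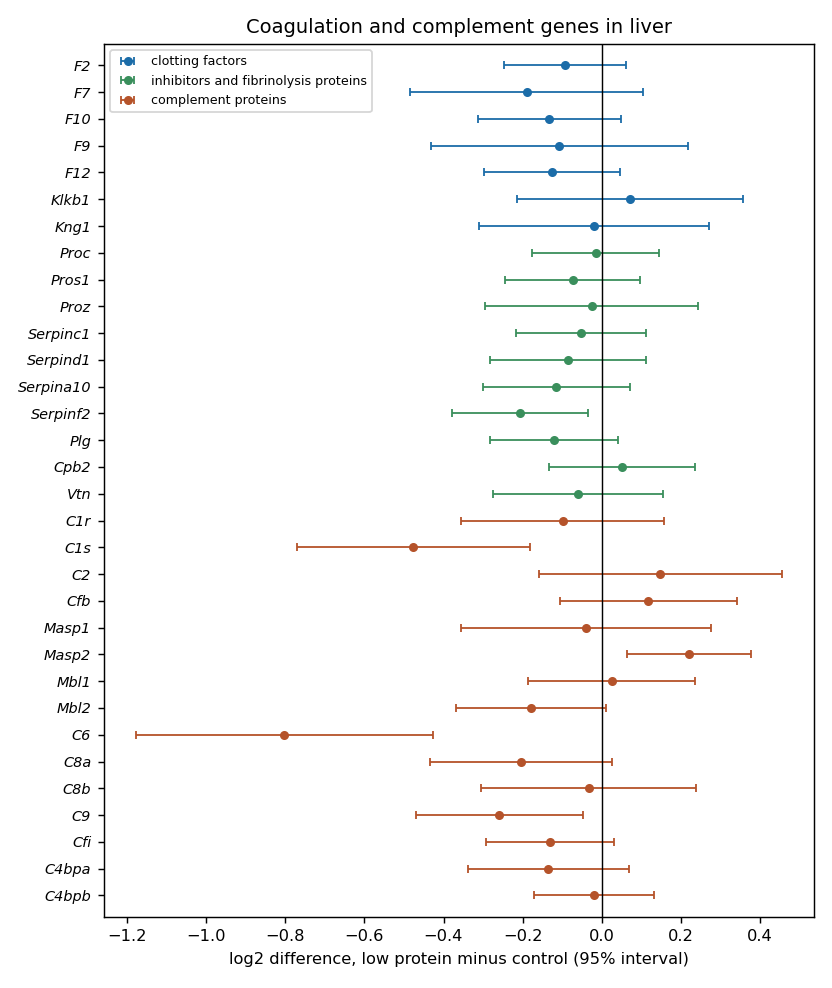
Log2 difference in liver RNA level, low protein minus control, for the 32 measured genes (points), with 95% intervals of limma (bars) and 6 rats per diet. Colours mark clotting factors, inhibitors and fibrinolysis proteins, and complement proteins, and C6 lies lowest at -0.80.

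C6 is the terminal component that binds C5b and starts the assembly of the membrane pore. Its probe read 3.22, 3.52 and 4.05 (lowest, median and highest of 6 rats) in low protein livers, against 4.00, 4.39 and 4.83 in control livers. The 2 ranges touched only narrowly, with low protein rat 3 at 4.05 just above control rats 1 and 2 at 4.00 and 4.03. The difference was -0.80 ± 0.17 (log2 units and SE; 95% interval -1.18 to -0.43; limma adjusted p = 0.0171). Slide 1 alone gave -0.81 and slide 2 alone -0.79, and with slide as a block its limma adjusted p was 0.0167. Leaving out any 1 rat kept the call (-0.90 to -0.71). Without any scaling between arrays it was -0.67, with a limma adjusted p of 0.0887, so the call then ended. In a whole-liver sample, fewer cells of a type and less RNA per cell cannot be told apart. Of the 6 hepatocyte markers, only Apoa1, the main protein of high-density lipoprotein, passed limma's test (16.7%, against 6.53% of all genes tested). It was lower in low protein livers (-0.84 ± 0.14, limma adjusted p = 0.00387). Of the 6 markers 5 had differences below 0, with a median of -0.13, and Hnf4a was at 0.09. The summed signal of the 6 markers was 451 to 578 times the 75th percentile in low protein livers and 536 to 606 times in control livers. Such a sum, here and for other cell types below, adds signals of different probes, so the brightest probes weigh most. The part of these cells in the fall of C6 was not tested.

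A further probe of C6 was also lower in low protein livers, measured on the same RNA. It read 0.39, 0.98 and 1.19 in low protein livers, against 1.58, 1.87 and 2.08 in control livers, so here every low protein rat lay below every control rat. When each of 25688 probes was tested as its own feature, a choice made after seeing the data, its difference was -0.95 ± 0.14 (limma adjusted p = 0.00228). In that fit 6.69% of all probes changed, and 5.07% of all probes had values that did not overlap between the diets. Of the 45 probes of the 32 genes, 4 changed, all lower: both C6 probes, 1 of 2 C1s probes and 1 of 2 C9 probes.

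**Figure D2:**
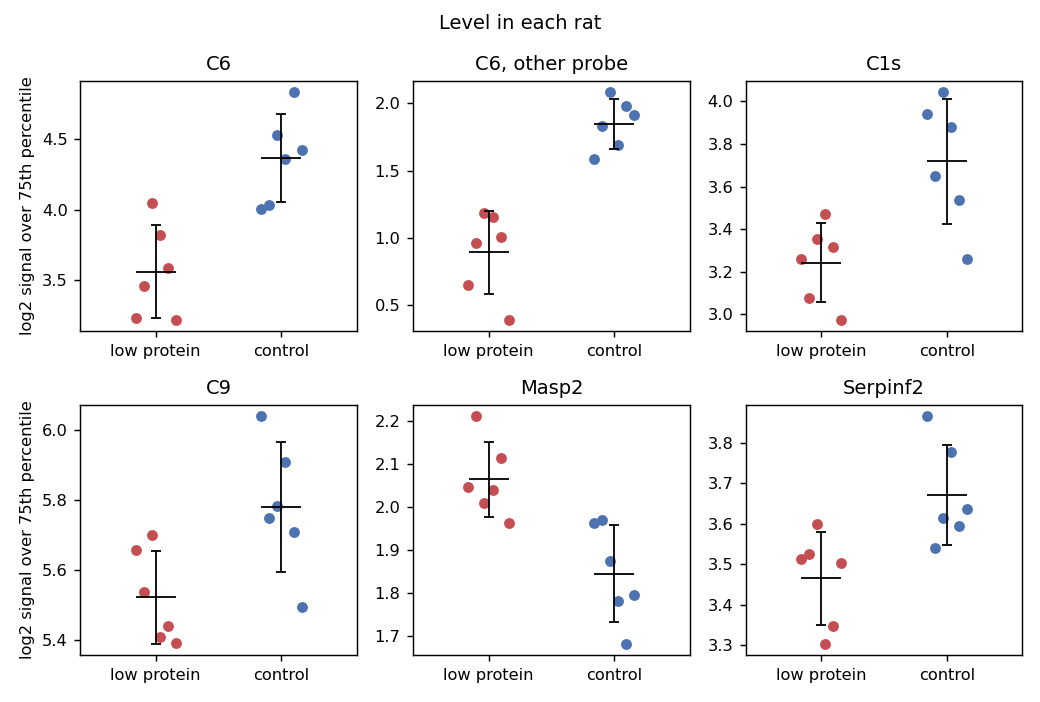
Log2 signal over the 75th percentile of the array in each rat (points) with mean and SD (bars) for the 5 genes with an unadjusted p under 0.05 and for the other C6 probe, 6 rats per diet, low protein left and control right. The other C6 probe shows no overlap between the diets, and the vertical axes differ between panels and do not start at 0.

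Promoter sequences of C6 and of the other measured terminal components in the RefSeq promoter table are shown because C6 alone of these changed. They are 300-base windows (250 bases before the RefSeq start and 50 from it) of the GRCr8 build, written 5′ to 3′ on the gene's strand. Capitals mark matches on either strand to any of 5 motifs: GTTAAT of HNF1, CAAAGTCCA of HNF4, TTGCNNAA of C/EBP, TGATGNAA of ATF4, which acts in the amino acid response, and TATAAA of the TATA box. No match in these windows overlaps another.
C6 (chr2:55573383-55573682, plus strand): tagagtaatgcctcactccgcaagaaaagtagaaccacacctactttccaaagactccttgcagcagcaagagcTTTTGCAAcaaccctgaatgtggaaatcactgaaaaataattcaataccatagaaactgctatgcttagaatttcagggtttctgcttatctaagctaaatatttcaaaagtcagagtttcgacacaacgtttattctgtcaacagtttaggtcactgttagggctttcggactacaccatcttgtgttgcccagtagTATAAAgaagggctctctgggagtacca
C8a (chr5:124866582-124866881, minus strand): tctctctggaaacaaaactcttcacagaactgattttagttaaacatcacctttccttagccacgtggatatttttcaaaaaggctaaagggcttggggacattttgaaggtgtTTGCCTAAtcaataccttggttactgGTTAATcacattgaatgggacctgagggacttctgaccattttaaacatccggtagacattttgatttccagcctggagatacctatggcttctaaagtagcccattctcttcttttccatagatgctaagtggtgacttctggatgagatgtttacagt
C8b (chr5:124763864-124764163, plus strand): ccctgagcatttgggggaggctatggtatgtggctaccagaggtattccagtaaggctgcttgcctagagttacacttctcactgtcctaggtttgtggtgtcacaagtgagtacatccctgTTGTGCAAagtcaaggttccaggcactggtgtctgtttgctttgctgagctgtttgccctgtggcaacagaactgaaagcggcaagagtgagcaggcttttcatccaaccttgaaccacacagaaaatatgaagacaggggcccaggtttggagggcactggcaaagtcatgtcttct

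The C6 window holds a C/EBP match whose first base is at -176 from the start and a TATA box match at 23 after it. The C8a window holds a C/EBP match at -136 and an HNF1 match at -110, and the C8b window a C/EBP match at -128. Over the 28 of the 37 genes found in the promoter table, 10 windows (35.7%) held the C/EBP motif, against 10.6% of all 33469 windows. For the 28 genes 1 window each was counted, while the share of all counts every window of the promoter table. The HNF1 motif was in 8 windows (28.6%, against 7.45% of all), among them those of F2, Plg and Proc. The windows of C5 and F13b, which had no matched probe, are also among these. The HNF4 motif was in 1 window, that of Proz (3.57%, against 0.391% of all), the TATA box in that of C6 alone (3.57%, against 14.2% of all), and the ATF4 motif in none of the 28 (3.98% of all). A match describes letters and is not a measured binding site.

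Among the other terminal proteins, C9, which polymerises to form the wall of the pore, did not pass limma's test. It read 5.39, 5.49 and 5.70 in low protein livers, against 5.49, 5.76 and 6.04 in control livers. Control rat 6 at 5.49 lay within the low protein range and the other control rats above it. The difference was -0.26 ± 0.10 (limma adjusted p = 0.138). Slide 1 gave -0.18 and slide 2 gave -0.42. The other C9 probe gave -0.47 ± 0.12 and passed among all probes (limma adjusted p = 0.0373), and after quantile normalization C9 passed by the main probe as well (-0.29, limma adjusted p = 0.0426). C8a and C8b, chains of the C8 protein that anchors the pore, were at -0.20 ± 0.11 and -0.03 ± 0.13, with 95% intervals of -0.43 to 0.03 and -0.31 to 0.24.

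In the membrane, CD59 keeps C8 and C9 from completing the pore. Cd59b, a CD59 gene of the rat and one of a list of other complement regulators and receptors, fell, and the diets did not overlap. It read 0.42, 0.53 and 0.72 in low protein livers, against 0.83, 0.95 and 1.15 in control livers. The difference was -0.42 ± 0.07 (limma adjusted p = 0.00616). Slide 1 gave -0.41 and slide 2 gave -0.44. Without scaling it was -0.29 and the call ended (limma adjusted p = 0.219). It was the only one of the 12 measured genes of that list to pass (8.33%, against 6.53% of all genes tested), and the median of the list was -0.20, or -0.066 without scaling.

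The classical route begins with C1, in which C1q binds its target and the proteases C1r and C1s are activated in turn. C1s read 2.97, 3.29 and 3.47 in low protein livers, against 3.26, 3.76 and 4.04 in control livers. Control rat 6 at 3.26 was within the low protein range, and the other control rats were above it. The difference of -0.48 ± 0.14 (95% interval -0.77 to -0.18) missed the threshold narrowly (limma adjusted p = 0.0568). Slide 1 gave -0.40 and slide 2 gave -0.62, and the other C1s probe gave -0.50 ± 0.13 (limma adjusted p = 0.0421 among all probes). Without control rat 6 it was -0.57 and passed (limma adjusted p = 0.0189). It also passed in 7 of 13 other settings of the processing, with limma adjusted p of 0.0276 to 0.0495. C1r, its neighbour in the GRCr8 annotation and its partner in the complex, was at -0.10 ± 0.12 (95% interval -0.36 to 0.16), and whether the pair differ was not tested.

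C2, the protease that C1s cleaves next, was at 0.15 ± 0.14 (0.09 to 0.26 with each rat left out), and its neighbour Cfb, factor B, which plays the same part in the alternative route, at 0.12 ± 0.10 (0.07 to 0.19). Cfb read 4.89, 5.12 and 5.35 in low protein livers, against 4.83, 4.97 and 5.36 in control livers, where control rat 1 held the highest value of all 12 rats and the others lay between 4.83 and 5.01. Neither gene passed limma's test (adjusted p = 0.607 for C2 and 0.57 for Cfb).

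Of the lectin route, Masp2, the protease that mannose-binding lectin carries, had the highest difference of the 32 genes. It read 1.96, 2.04 and 2.21 in low protein livers, against 1.68, 1.83 and 1.97 in control livers, so the ranges only just overlapped, with low protein rat 6 at 1.96 below control rat 2 at 1.97. The difference was 0.22 ± 0.07 (limma adjusted p = 0.093). Its 3 probes disagreed, at 0.22, 0.18 and -0.07. The mannose-binding lectin gene Mbl2 read 0.61, 0.71 and 0.86 in low protein livers, against 0.72, 0.89 and 1.18 in control livers (-0.18 ± 0.09, limma adjusted p = 0.26). The 3 lowest low protein values lay below every control value and the others within the control range. Mbl1, the other lectin gene of this kind in the rat, was at 0.02 ± 0.10 and Masp1, a further protease of the route, at -0.04 ± 0.15, with 0.04 to 0.13 for its other probes.

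Complement is restrained in plasma by factor I and by C4b-binding protein, its cofactor. Cfi, factor I, read 6.50, 6.73 and 6.80 in low protein livers, against 6.71, 6.82 and 6.88 in control livers (-0.13 ± 0.07, limma adjusted p = 0.348). C4bpa, the alpha chain of C4b-binding protein, read 4.96, 5.17 and 5.27 in low protein livers, against 5.01, 5.26 and 5.48 in control livers (-0.14 ± 0.09, limma adjusted p = 0.451). In both genes the ranges overlapped, and in Cfi the 3 lowest low protein values lay below every control value. C4bpb, the beta chain, was at -0.02 ± 0.07.

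Further complement components outside the 37 did not pass limma's test, though most of their differences lay on 1 side. All 13 measured of 15 such components had differences below 0, beside 55.1% of all genes tested. The count was 12 of 13 after quantile normalization and 9 of 13 without scaling. Without scaling all 13 still lay below the median of all genes, which moved too. The differences ran from -0.40 to -0.05, with a median of -0.22 (-0.14 on slide 1 and -0.46 on slide 2). An adjusted p under 0.05 was reached by none, and 5 (38.5%, against 21.6% of all genes tested) had an unadjusted p under 0.05. All 5 were lower, as were 11.3% of all genes tested at that p. C1qa, a chain of C1q, was at -0.39 ± 0.14 (limma adjusted p = 0.118), and Cfp, properdin, at -0.40 ± 0.16 (limma adjusted p = 0.176). C1q is made by macrophages, among them the Kupffer cells of the liver. All 7 measured of 8 Kupffer cell markers, C1qa among them, had differences below 0, beside 55.1% of all genes tested. The differences were -0.72 to -0.24, with a median of -0.39 (-0.27 on slide 1 and -0.74 on slide 2). Without scaling all 7 were below 0 too. Of these markers none passed limma's test, and 5 (71.4%, against 21.6% of all genes tested) had an unadjusted p under 0.05. These 5 were lower too (11.3% of all genes tested). Their summed signal was 16.5 to 23.2 times the 75th percentile in low protein livers and 16.5 to 33.1 times in control livers. Timd4 was not measured, and the part of these cells in the values of the complement genes was not tested.

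None of the 7 measured clotting factors passed limma's test, at an adjusted or an unadjusted p under 0.05. Factor VII, F7, starts the cascade with tissue factor, and its RNA read -2.13, -1.88 and -1.40 in low protein livers, against -1.82, -1.67 and -1.26 in control livers. The 3 lowest low protein values lay below every control value, and the difference was -0.19 ± 0.14 (limma adjusted p = 0.469). F10, factor X, at which the intrinsic and extrinsic routes meet, read 3.85, 3.99 and 4.17 in low protein livers, against 4.03, 4.10 and 4.27 in control livers (-0.13 ± 0.08, limma adjusted p = 0.396). F2, prothrombin, was at -0.09 ± 0.07. F7, F10 and Proz are neighbours in the GRCr8 annotation, and their differences had 95% intervals of -0.48 to 0.10, -0.31 to 0.05 and -0.30 to 0.24.

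F9, factor IX, which is lacking in haemophilia B, read 4.12, 4.80 and 4.97 in low protein livers, against 4.51, 4.81 and 5.02 in control livers. Low protein rat 6 was the lowest of all 12 rats. The difference was -0.11 ± 0.15 (limma adjusted p = 0.744), and it was 0.03 for slide 1 but -0.39 for slide 2. F12, which starts the contact route, read 5.21, 5.54 and 5.63 in low protein livers, against 5.57, 5.60 and 5.73 in control livers (-0.13 ± 0.08, limma adjusted p = 0.401), and low protein rat 4 was the low value. Klkb1, plasma prekallikrein, which F12 activates, was at 0.07 ± 0.13. Kng1, the kininogen from which kallikrein releases bradykinin, was at -0.02 ± 0.13 for its brightest probe and at 0.14 and 0.23 for the others. The rat has closely related kininogens, of which Kng2 was at -0.01 and Kng2l1 at -0.10, and cross-hybridisation between them was not tested.

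Protein C, with protein S as its cofactor, inactivates factors V and VIII. Proc, the gene of protein C, read 5.67, 5.78 and 6.00 in low protein livers, against 5.75, 5.82 and 5.95 in control livers (-0.02 ± 0.07, limma adjusted p = 0.932). Pros1, that of protein S, read -2.03, -1.83 and -1.58 in low protein livers, against -1.84, -1.74 and -1.65 in control livers (-0.07 ± 0.08, limma adjusted p = 0.653). In both, the low protein rats spread on either side of the control rats. Proz, protein Z, the cofactor that lets Serpina10 inhibit factor X, was at -0.03 ± 0.12.

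Serpinf2 encodes alpha2-antiplasmin, the inhibitor of plasmin. It read 3.30, 3.51 and 3.60 in low protein livers, against 3.54, 3.63 and 3.87 in control livers, so that control rats 2 and 5 lay within the low protein range and the others above it. The difference was -0.21 ± 0.08 (limma adjusted p = 0.146). Slide 1 gave -0.19 and slide 2 gave -0.24. Serpina10 read 4.14, 4.40 and 4.44 in low protein livers, against 4.29, 4.51 and 4.67 in control livers (-0.11 ± 0.09, limma adjusted p = 0.493), and low protein rat 4 was lowest. Serpinc1, antithrombin, and Serpind1, heparin cofactor II, were at -0.05 ± 0.08 and -0.09 ± 0.09, with 95% intervals of -0.22 to 0.11 and -0.28 to 0.11.

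Plg, plasminogen, the precursor of plasmin, read 6.33, 6.52 and 6.61 in low protein livers, against 6.45, 6.65 and 6.73 in control livers (-0.12 ± 0.07, limma adjusted p = 0.39). Cpb2, a carboxypeptidase that slows fibrinolysis, read 2.99, 3.12 and 3.21 in low protein livers, against 2.75, 3.10 and 3.23 in control livers (0.05 ± 0.09, limma adjusted p = 0.789). In both genes the ranges overlapped widely. Vtn, vitronectin, a plasma protein that binds complement pores and the inhibitor of plasminogen activators, read 6.43, 6.78 and 6.96 in low protein livers, against 6.64, 6.84 and 6.96 in control livers (-0.06 ± 0.10, limma adjusted p = 0.786).

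F2, F7, F9, F10, Proc, Pros1 and Proz share a Gla domain, whose glutamates are carboxylated by a vitamin K-dependent enzyme before secretion. All 7 differences were below 0 (-0.19 to -0.02, median -0.09), and none passed, but without scaling 5 of the 7 were above 0. Of 8 genes of the vitamin K cycle and Gla protein processing, all measured, none passed limma's test either. An unadjusted p under 0.05 was reached by 4 (50%, against 21.6% of all genes tested), all of them lower (11.3% of all genes tested). Of the 8, 7 had differences below 0, but 4 without scaling, where the median was -0.025 in place of -0.16. Without scaling the median of all genes also moved, to 0.11, and 7 of the 8 lay below the median of all genes in either setting. Vkorc1l1, a vitamin K epoxide reductase, was at -0.26 ± 0.10 (limma adjusted p = 0.139), and Gas6, a further Gla protein, at -0.60 ± 0.19 (limma adjusted p = 0.0757), with a pass when low protein rat 1 was left out (limma adjusted p = 0.0451).

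Other genes of these routes stayed below the threshold as well. Of 8 measured genes of fibrinogen and of the platelet and tissue side of clotting none passed, and 1 (12.5%, against 21.6% of all genes tested) had an unadjusted p under 0.05. Fgg, the gamma chain of fibrinogen, was at -0.18 ± 0.10 (limma adjusted p = 0.31), and Lman1, which in humans is a cargo receptor for factors V and VIII, at 0.27 ± 0.09 (limma adjusted p = 0.108). Of 13 measured other inhibitors and fibrinolysis genes none passed. An unadjusted p under 0.05 was reached by 2 (15.4%, against 21.6% of all genes tested), both with a higher value. These were Tfpi, tissue factor pathway inhibitor, at 0.27 ± 0.12 (limma adjusted p = 0.207), and Procr, the endothelial protein C receptor, at 0.34 ± 0.16 (limma adjusted p = 0.23). The Procr probe was dim and gave 0.04 after normexp and 0.16 from the deposited value table. Of 15 measured liver transcription factors and cytokine signalling genes none passed and 3 (20.0%, against 21.6% of all genes tested) had an unadjusted p under 0.05, with Foxa1 at -0.31 ± 0.10 (limma adjusted p = 0.0953) and Nr1h4, the bile acid receptor, at 0.36 ± 0.13 (limma adjusted p = 0.133).

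The median difference was -0.11 over the 7 clotting factors (-0.19 to 0.07), -0.07 over the 10 inhibitors and fibrinolysis proteins (-0.21 to 0.05) and -0.10 over the 15 complement proteins (-0.80 to 0.22), beside -0.03 over all genes tested. Differences were below 0 in 6 of 7, 9 of 10 and 11 of 15 genes, or 81.2% of the 32, beside 55.1% of all genes tested. This balance depended on the scaling, which shifts all genes of an array by 1 constant: without it the median of all genes moved to 0.11, and 9 of the 32 genes instead of 26 were below 0. Set against the median of all genes, the classes lay at -0.08, -0.04 and -0.07, with the scaling and without it. After normexp background correction they lay at -0.02, 0.0046 and -0.01, and without the filter on dim probes, which changes the median of all genes only, at -0.17, -0.13 and -0.16. The balance also differed between slides, with class medians of -0.05, 0.002 and -0.04 on slide 1 and -0.26, -0.21 and -0.21 on slide 2. No order among the classes can be read from medians this close, and since the genes were chosen with earlier results known, no test over a class was made.

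**Figure D3:**
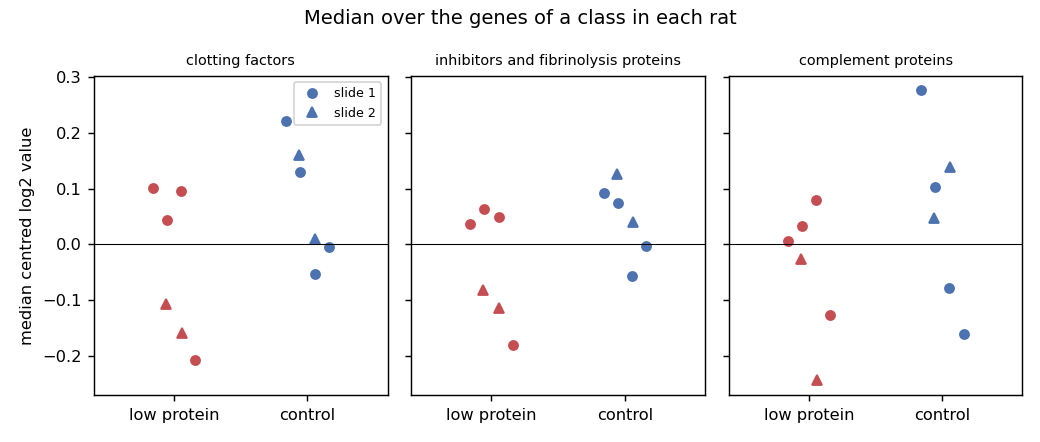
Median over the genes of a class in each rat, after the mean of the 12 rats was taken from each gene (log2 units), low protein left and control right, with circles for slide 1 and triangles for slide 2. The diets overlap in all 3 classes, and the low protein rats of slide 2 and low protein rat 4 of slide 1 lie below 0 in each.

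Some rats were low or high in many of the genes at once. Low protein rat 6 held the lowest low protein value in 17 of the 32 genes and rat 4 in 9, while rat 3 held the highest in 12. Among control rats, rat 1 held the highest value in 15 genes, and rats 6 and 5 the lowest in 13 and 9. The 75th percentile that divides the signal was 1317, 1237 and 1110 for low protein rats 6, 4 and 3. It was 944, 983 and 1105 for control rats 1, 6 and 5. Such counts over all genes are not given here, and a link of the pattern to the scaling was not tested. As a median over the clotting factors after taking each gene's own mean, low protein rats lay between -0.21 and 0.10 and control rats between -0.05 and 0.22. Over the inhibitors and fibrinolysis proteins they lay between -0.18 and 0.06 in low protein livers and between -0.06 and 0.13 in control livers, and over the complement proteins between -0.24 and 0.08 in low protein livers and between -0.16 and 0.28 in control livers. C6 did not follow this pattern in the control rats: its brighter probe was highest in rat 5 and its other probe in rat 3, and both were lowest in rat 1.

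**Figure D4:**
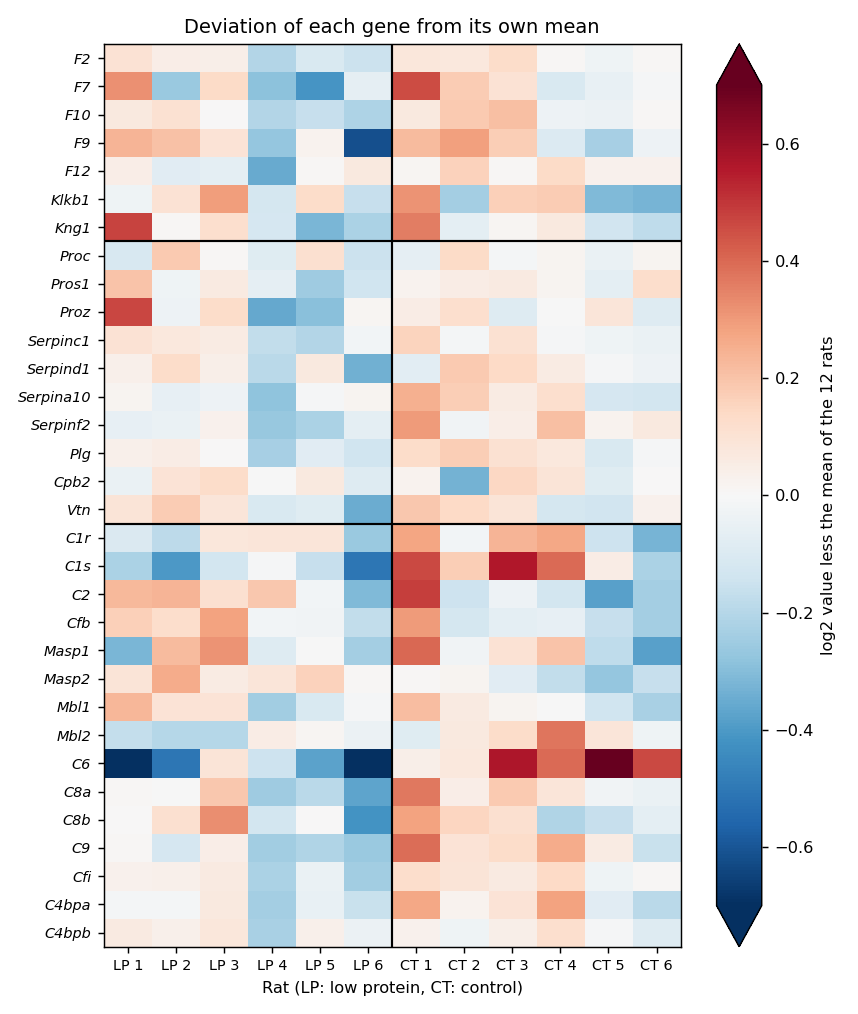
Log2 value of each gene in each rat less the gene's mean over the 12 rats (colour), with low protein rats (LP) left of control rats (CT) and lines between the 3 classes. C6 is low in low protein rats 1 and 6 and high in control rat 5, and low protein rats 4 and 6 are low in many genes.

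The spread within a diet was small for most of these genes. The SE of a difference was 0.07 to 0.17 with a median of 0.10, beside a median of 0.13 over all genes tested. C6 had the largest residual SD of the 32 genes (0.32, at the percentile 71.7 of all genes tested) and C4bpb the smallest (0.09). An absence of calls is thus bounded by the intervals: for Serpinc1 and Proc, for instance, they reach no further than -0.22 and -0.18 on the low side, and for F7 as far as -0.48.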

How the data were processed

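Liver RNA of 12 rats was measured on 1-colour arrays. The intensity values used are the processed spot signals in the scanner output of Agilent Feature Extraction 12.0.3.1, already background-corrected, per the file headers. They were divided by the 75th percentile of each array and taken as log2, with outlier spots left out and spots of a probe averaged. Of 45598 probes, 46.5% were named by RefSeq accession. A gene took its brightest probe that exceeded background clearly in 5 or more of the 6 rats of either diet. Diets were compared over 21858 genes with limma 3.58.1 (R 4.3.3), two-sided, with Benjamini-Hochberg adjustment. This was tested on simulated data.

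The authors' deposited value table holds the median signal and served as an alternative. Alternatives also covered background correction, scaling, filter, probe choice, slide, rat number and leaving out each rat. On these arrays 61.2% to 69.9% of spots were well above background, and arrays of a diet correlated at 0.985 to 0.992.

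The genes and lists were chosen with earlier results of these data known. Values by rat are given for genes that changed and for the 2 of smallest p of each role. From each further list, up to 3 genes that passed, or 2 of smallest p, are named.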

Additional observations from a re-analysis of the deposited data

Results flagged for a closer look

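In 3 of 64 sets of 6 rats (32 genes in 2 diets), 1 rat stood apart from the others of its diet in Dixon's test, which chance gives in about 5% of sets. F12 read 5.21 in low protein rat 4, against 5.48 to 5.63 in the other low protein rats. Serpina10 read 4.14 in the same rat, against 4.36 to 4.44 in the other low protein rats. Cfb read 5.36 in control rat 1, against 4.83 to 5.01 in the other control rats.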

How the results depend on the processing

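Without scaling between arrays 892 genes changed (76.2% of them higher, against 53.3% with the scaling used), and 618 without the filter on dim probes, 164 on slide 1 alone and 12 on slide 2 alone, where fewer rats were tested. Of the genes described here, 0 changed without scaling and on slide 1 or slide 2 alone. There were 2, C6 and C1s, with normexp, the deposited value table, the filter on all 12 arrays, the mean of all probes or trended robust spread, and 3, with C9 added, under quantile normalization. Slide as a block, outlier spots kept and no filter left the count at 1. Leaving out each rat in turn gave 1 to 2 such genes, and 856 to 1307 genes in all, with the 2 (C1s added) without control rat 6 and the 856 without control rat 3.

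C6 lost its call without scaling (-0.67, limma adjusted p = 0.0887) and on slide 1 (adjusted p = 0.144) or slide 2 (adjusted p = 0.346) alone. Its limma adjusted p was 0.0094 to 0.0432 with each rat left out and 0.0494 without the filter. Class medians moved without scaling, to 0.025 for clotting factors and 0.065 for inhibitors and fibrinolysis proteins, with 0.033 for complement proteins, which is within the spread between rats, and on slide 2 alone, to -0.26 and -0.21. With each rat left out they ranged over -0.15 to -0.064, -0.11 to -0.042 and, for complement proteins, -0.14 to -0.054.

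Same-numbered rats of the diets, from number 1 to 6, had correlations of 0.26, 0.13, 0.11, 0.10, 0.03 and 0.12 in their deviations. The best matching control rat was that of the same number for numbers 1 and 3 only. Since not all correlations were over 0.1, the numbers were not taken to pair the rats. With the replicate block by rat number 1412 genes and 2 of these genes, C1s and C6, changed, and Gas6 passed as well (limma adjusted p = 0.027).

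Of 809 values of the measured genes under the alternatives, 722 kept direction and side of the threshold and 73 changed sign, all of genes that had not passed. Signs turned, as log2 differences, with normexp (Kng1 0.015, Proz 0.0092, Mbl1 -0.0051, C8b 0.0096), the deposited table (Kng1 0.012, Proz 0.0060, Mbl1 -0.0079, C8b 0.0067), no scaling (F2 0.040, F9 0.025, F12 0.0072, Kng1 0.11, Proc 0.12, Pros1 0.059, Proz 0.11, Serpinc1 0.079, Serpind1 0.047, Serpina10 0.018, Plg 0.012, Vtn 0.071, C1r 0.033, Masp1 0.092, C8b 0.099, Cfi 0.0024, C4bpb 0.11), quantile normalization (F2 0.0082, Klkb1 -0.011, Kng1 0.071, Cpb2 -0.025, Vtn 0.028, Mbl1 -0.043), the mean of probes (Kng1 0.12, Proc 0.0091, Proz 0.037, Masp1 0.049), slide 1 alone (F9 0.035, Kng1 0.11, Proc 0.025, Pros1 0.0041, Proz 0.060, Vtn 0.019, Masp1 0.043, C8b 0.038), slide 2 alone (C2 -0.029, Cfb -0.0080, Mbl1 -0.085) and the next brightest probe, an alternative chosen after seeing the data (Kng1 0.14, Proc 0.034, Proz 0.10, Masp1 0.13, Masp2 -0.066). With each rat left out, signs turned within ranges of F9 -0.16 to 0.0048, Kng1 -0.12 to 0.050, Proc -0.054 to 0.013, Proz -0.12 to 0.043, Cpb2 -0.0088 to 0.086, Vtn -0.10 to 0.0024, Masp1 -0.12 to 0.036, Mbl1 -0.020 to 0.075, C8b -0.10 to 0.046, C4bpb -0.039 to 0.024. Cd59b lost its call without scaling (-0.29), on slide 1 (-0.41) and on slide 2 (-0.44).

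The number of arrays limits precision: 6 rats per diet gave SEs of 0.07 to 0.17 for these genes. All were well above background on every array, but whether signal level affected precision was not tested.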

Other observations

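Markers of other cell types of the liver showed no gene past limma's adjusted p of 0.05, with counts at an unadjusted p under 0.05 given here beside 21.6% of all genes tested. Of 6 measured markers of liver endothelium 1 was under it, lower, and the median difference was -0.02, and their summed signal was 16.2 to 17.7 times the 75th percentile in low protein livers and 15.1 to 18.4 times in control livers. Of 7 stellate cell and fibroblast markers 0 were, with a median of -0.02, and their sums were 2.97 to 4.13 times in low protein livers and 3.16 to 4.12 times in control livers. Of 5 cholangiocyte markers 2 were, both lower, with a median of -0.27, but -0.54 on slide 1 and 0.32 on slide 2, and 2 of the 5 were well above background on all 12 arrays. For platelets 2 of 5 markers were measured (median 0.09, 0 under it), for neutrophils 2 of 5 (median 0.35, 1 under it, higher) and for lymphocytes 3 of 6 (median -0.12, 0 under it).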
